A study of Homo sapiens with 8 samples.

Results

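The matrix metalloproteases, ADAMs, ADAMTS proteases and their TIMP inhibitors were followed in LNCaP and PC3, human prostate cancer lines, as controls and with the microRNA miR-375 overexpressed per the labels. Members were taken by symbol (MMP, ADAM, ADAMTS or ADAMTSL followed by a number, and TIMP1 to TIMP4) with 10 or more counts summed over the 8 libraries. This gave 64 genes, of 27270 genes at the same threshold and 60622 genes in all. A further 8 symbols matched but fell under the threshold: ADAM5, ADAM6, ADAM29 and ADAM30 had 0 counts everywhere, MMP8 had 2 counts, MMP26 5, and MMP20 and MMP27 6 each. Just inside it were ADAM20 with 13 counts, ADAM18 and ADAMTS8 with 14 each, ADAMTS18 with 15, and ADAMTS19 and ADAMTSL2 with 18 each.

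Poly(A) RNA-seq counts were deposited for 4 groups of 2 libraries: LNCaP control, LNCaP with miR-375 overexpressed, PC3 control and PC3 with miR-375 overexpressed. The first line grew out of a lymph node metastasis and responds to androgen, and the second grew out of a bone metastasis. LNCaP medium held 10% serum and PC3 medium 20%, and this cannot be told apart from the line itself. The sources used here do not give the means and duration of the overexpression, what control cells received, or whether the overexpressing cells were single clones. Poly(A) selection does not capture a mature microRNA, so the level of miR-375 itself was not measured. The labels do not say that replicates were separate cultures, and p-values then reflect only how far these libraries scatter, which may be technical.

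MMPs are zinc proteases that are made as inactive precursors and cleave collagens, other matrix proteins and one another. ADAMs are mostly membrane-bound and release the outer parts of growth factors, receptors and adhesion proteins, although several have lost the catalytic site. ADAMTS proteases are secreted and cut procollagens and proteoglycans, ADAMTSL proteins share their ancillary domains without the protease, and TIMPs bind and block the active site of MMPs and of some ADAMs. In prostate tumours these genes are studied for their part in invasion, bone metastasis and growth factor release.

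Library totals ran from 33973861 to 41890528 counts. Levels are CPM, in which counts are divided by library size after TMM scaling. The summed level of 8 LNCaP markers was 4170 to 5456 CPM in the LNCaP libraries and 83.4 to 91.1 CPM in the PC3 libraries, where KLK3 and KLK2, the genes of the prostate kallikreins, were at 0. The summed level of 8 PC3 markers was 40.3 to 55.5 CPM in LNCaP and 1284 to 2259 CPM in PC3. Each line's own marker sum was lower with miR-375, at 4170 and 4288 CPM beside 5456 and 5427 CPM in LNCaP controls, and at 1306 and 1284 CPM beside 2259 and 2238 CPM in PC3 controls. In LNCaP, KLK3 went from 2811 and 2762 CPM to 1797 and 1861 CPM, but FOLH1 was higher (771 and 772 CPM, then 851 and 855.5 CPM). In PC3, FOSL1 went from 718 and 726.5 CPM to 296 and 293 CPM, but KRT7 was slightly higher (125 and 127 CPM, then 129 and 135 CPM). The part of these marker shifts in the member results was not tested. Leukocyte markers summed to 0.997 to 4.13 CPM over the 8 libraries. In a bulk sample, fewer cells that express a gene and less RNA per cell cannot be told apart. Of the members, 55 passed the filter on low counts and were tested. The other 9 were MMP12, MMP19, ADAM18, ADAM20, ADAMTS4, ADAMTS8, ADAMTS18, ADAMTS19 and ADAMTSL2.

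The microRNA and the member transcripts that hold a match to its seed are shown first, since base pairing through the seed (bases 2 to 8, in capitals) is how a microRNA finds its messenger RNAs. The mature sequence, from RefSeq (GRCh38.p14, chr2:219001648-219001669, minus strand), was as follows.
hsa-miR-375-3p: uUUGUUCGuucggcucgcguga

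The longest annotated 3′ UTR of each gene (GENCODE v29, GRCh38) was searched for CGAACAA, which pairs with bases 2 to 8, and for GAACAAA, which pairs with bases 2 to 7 followed by an A. Matches were found in 8 of 19 ADAMTS members, 4 of 18 ADAM members and 1 of 5 ADAMTSL members, in 0 of 18 MMP members and in 0 of 4 TIMPs. All of them were of the second kind. Among tested members 11 of 55 (20%) held a match. This stood beside 2505 of 14894 tested genes with a 3′ UTR (16.8%), where matches of both kinds were counted. These are letters in a transcript and not measured binding sites. The stretches around the match, in capitals, are given for ADAMTS6, which fell in both lines, and ADAMTS3, which fell in PC3. They were chosen for these falls. ADAMTS5, ADAM22 and ADAMTS1, which rose in PC3, hold matches of the same kind. Those of ADAMTS6 (chr5:65149468-65149495) and ADAMTS3 (chr4:72282722-72282749 and chr4:72281651-72281678) lie on the minus strand.
ADAMTS6: cccagcactgaGAACAAAatgcaggcat
ADAMTS3, first match: ttttggatatgGAACAAAgaattcttag
ADAMTS3, second match: aagctaaaactGAACAAAtttgatgtta

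Transcripts with a match moved both ways. Of the 11 tested members with one, 0 rose and 2 fell in LNCaP (ADAMTS1 and ADAMTS6). In PC3, 3 rose (ADAMTS5 by 3.78, ADAM22 by 0.40 and ADAMTS1 by 0.26) and 3 fell (ADAMTS3, ADAMTS6 and ADAMTSL3). Of the 44 tested members without a match, 10 rose and 5 fell in LNCaP, and 16 rose and 4 fell in PC3. Of the 2505 tested genes with a match of either kind, 317 rose and 880 fell in LNCaP, and 576 rose and 898 fell in PC3. Of the 12389 without one, 2257 rose and 2913 fell in LNCaP, and 3421 rose and 3129 fell in PC3. Over all tested genes the median log2 fold change of those with a match was -0.12 in LNCaP and -0.06 in PC3, beside 0 and 0.03 without one. Genes with a match had longer 3′ UTRs (median 3030 bases, beside 1060 without). The part of that difference in length in the medians was not tested.

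Which members each line holds was read from the controls. LNCaP controls had 28 members at a mean of 1 CPM or more and PC3 controls 39. Of the 55 tested members, 15 were higher in LNCaP controls and 29 were lower (edgeR quasi-likelihood test, Benjamini-Hochberg adjusted p under 0.05 over all 21066 genes tested), and 80.4% of all genes tested were called in this comparison, beside 80% of the members. Called higher were 41.2% of all genes and called lower 39.2%. The median log2 difference, LNCaP minus PC3, was -0.77 over the members and 0.07 over all genes tested.

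Levels of different genes were compared per kilobase of merged exon. In LNCaP controls the highest were ADAM9 at 59.1 ± 2.2 CPM per kilobase (SD, n = 2), ADAMTS1 at 56.2 ± 1.8 and ADAM15 at 34.5 ± 1.0, followed by MMP15 at 18.0, TIMP2 at 12.3 and ADAM10 at 11.8. The library values of ADAM9 and ADAMTS1 are next to each other without overlap (57.5 and 60.7 against 54.9 and 57.4), and those of TIMP2 and ADAM10 overlap (12.2 and 12.4 against 11.3 and 12.3). In PC3 controls TIMP1 stood first at 229 ± 7.7 CPM per kilobase and MMP14 was next at 170.5 ± 0.4. TIMP2 (59.3), ADAM9 (56.0) and ADAM15 (55.3) came after them, then ADAM8 (28.2), ADAM19 (27.7), ADAMTS1 (17.1) and MMP17 (11.5). ADAM9 and ADAM15 overlap between their PC3 control libraries, as do ADAM8 and ADAM19. MMP14 and ADAM19, among the most abundant members in PC3, were under 1 CPM in every LNCaP library, and ADAM7, an epididymal ADAM without a catalytic site, had 34.4 and 34.7 CPM in LNCaP controls and 0 counts in PC3. Against a limit of 3 counts in each PC3 library, ADAM7 was at least 452-fold higher in LNCaP controls.

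**Figure D1:**
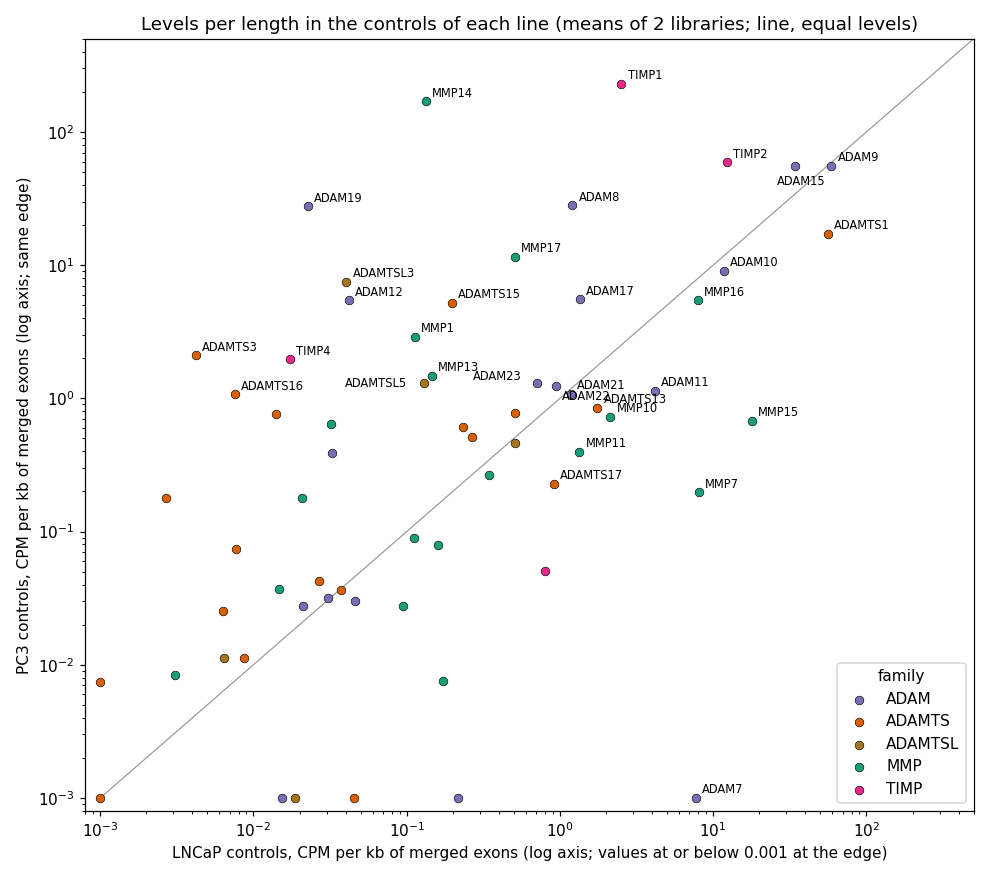
Level of each member in LNCaP controls (x axis) against PC3 controls (y axis), both as mean CPM per kilobase of merged exon on log axes with values at or under 0.001 at the edge; colours give the family and the line marks equal levels. TIMP1 and MMP14 lie highest on the PC3 axis (229 and 170.5), while ADAM9 and ADAM15 are high in both lines.

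Overexpression of miR-375 was called for 17 of 55 members in LNCaP, 10 higher and 7 lower (30.9%, beside 32.6% of all genes tested; 13.9% of all genes were higher and 18.7% lower). With library sizes taken from total counts, which moves the median of all genes by 0.12 on the log2 scale, 17 were also called, of which 70.6% were higher in place of 58.8%. In PC3 the same comparison called 26 of 55, 19 higher and 7 lower (47.3%, beside 43% of all genes; 22.2% higher and 20.8% lower). The median log2 fold change of the tested members was 0.03 in LNCaP and 0.04 in PC3, beside 0.00 and 0.02 over all genes. Changes of at least 2-fold were called for 5 members in LNCaP (9.09%, beside 4.61% of all genes). Of these, MMP2, MMP13, ADAM19 and ADAMTS6 lost their call in some alternative fits. TIMP1 stayed called in all, but its fall was under 2-fold without LNCaP control replicate 1. In PC3, 11 such changes were called (20%, beside 10.6%). Without LNCaP miR-375 replicate 2, the LNCaP count was 10.

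Across the lines, 5 members rose in both (MMP13, MMP16, ADAM19, ADAMTS15 and ADAMTS7, 9.09% beside 7.1% of all genes) and 1 fell in both (ADAMTS6, 1.82% beside 10.5%). MMP7, MMP17, ADAMTS1 and TIMP1 fell in LNCaP and rose in PC3, which is 7.27% of the members beside 2.57% of all genes. Among these LNCaP falls, only that of TIMP1 kept its call in every alternative fit. ADAM9 rose in LNCaP and fell in PC3 (1.82% beside 1.73%). The difference between the lines, LNCaP effect minus PC3 effect, was itself tested as an interaction and was called for 17 members, 4 with a higher and 13 with a lower log2 change in LNCaP (30.9%, beside 26.5% of all genes; 10.9% higher and 15.6% lower). Of these, 9 differed by at least 2-fold (16.4%, beside 6.24% of all genes). A further 23 tested members passed in neither line.

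**Figure D2:**
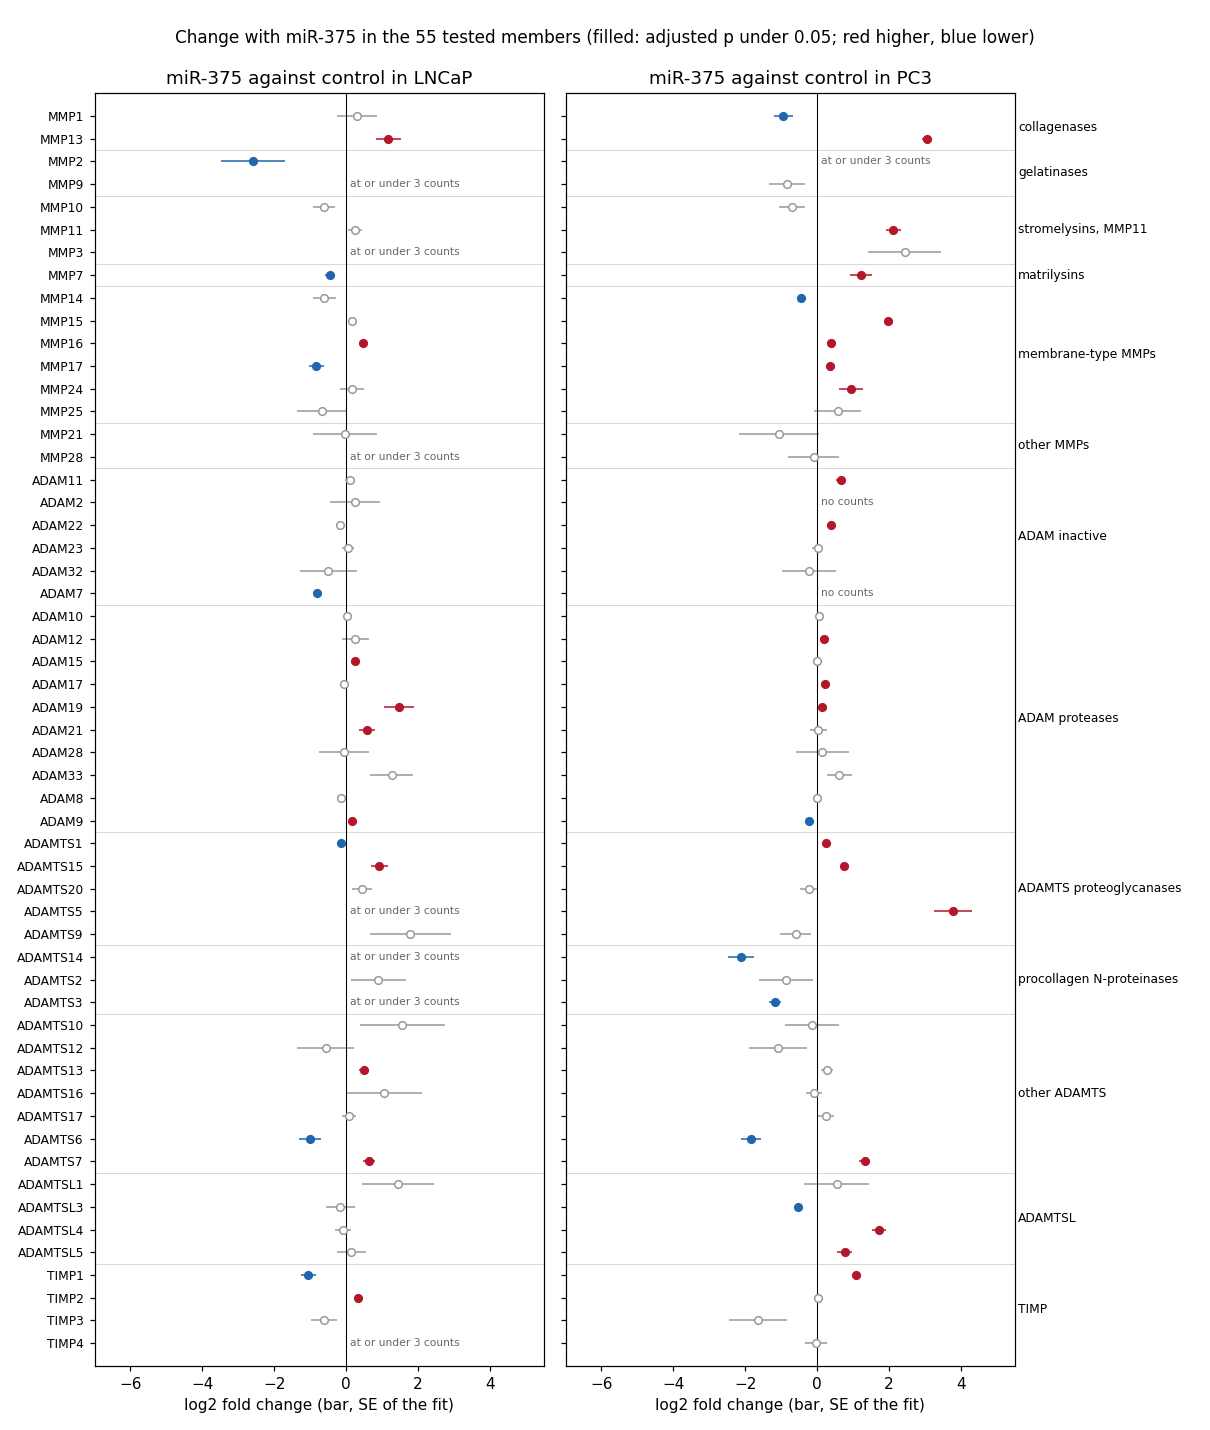
Log2 fold change with miR-375 against control for the tested members (rows) in LNCaP and PC3, with bars of 1 SE; filled points passed the adjusted p threshold (red higher, blue lower), and no point is drawn where both groups were at or under 3 counts on average. MMP7, MMP17 and TIMP1 lie left of 0 in LNCaP and right of 0 in PC3, and the longest called rises in PC3 are ADAMTS5 and MMP13.

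TIMP1, the secreted inhibitor of most MMPs and the most abundant member per kilobase in PC3, moved in opposite directions. In PC3 it measured 344 and 361 CPM in the controls and 744 and 742 CPM with miR-375. Both treated libraries lay above both controls, a rise of 1.07 ± 0.05 on the log2 scale (SE; 2.11-fold, adjusted p = 2.4e-12, edgeR). In LNCaP it measured 4.96 and 2.81 CPM in the controls and 1.79 and 1.94 CPM with miR-375. Here the groups did not overlap either, at a level far below that of PC3, and TIMP1 fell by 1.05 ± 0.20 (2.07-fold, adjusted p = 0.00043, edgeR). The difference between lines was -2.12 ± 0.21 (adjusted p = 2.1e-07, edgeR). Without LNCaP control replicate 1 the LNCaP change was -0.54 (adjusted p = 0.022, edgeR).

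LNCaP control replicate 1 had the higher value of the 2 LNCaP controls for several genes that fell in LNCaP. TBXT, the gene of the transcription factor brachyury, measured 8.28 and 4.67 CPM in these controls, 0.217 and 0.166 CPM with miR-375 and 0 in PC3. LGALS3, which encodes galectin-3, measured 13.3 and 6.45 CPM and then 1.03 and 0.637 CPM. AKR1B10, UCHL1 and TGFBI showed the same order between the controls. These 5 genes were chosen after their values were seen. Of the 7 members that fell in LNCaP, MMP2 and TIMP1 differed most between the controls (2.11 and 1.77 times higher in replicate 1), and the other 5 had ratios of 0.951 to 1.22. The part of whatever these genes mark in the MMP2 and TIMP1 results was not tested.

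TIMP2, which also takes part in the activation of MMP2 by MMP14, measured 69.6 and 68.5 CPM in LNCaP controls and 87.1 and 86.0 CPM with miR-375. This rise of 0.33 ± 0.04 passed the test (adjusted p = 8.3e-08, edgeR). In PC3 its levels were 327 and 341 CPM and then 341 and 338 CPM, which overlap, with a change of 0.03 (95% interval -0.05 to 0.10), which passed only with total-count library sizes (0.10, adjusted p = 0.022). The effects differed between lines by 0.30 ± 0.06 (adjusted p = 6.8e-05, edgeR). TIMP3, the matrix-bound inhibitor that also blocks ADAM17, measured 4.96 and 2.35 CPM in LNCaP controls and 2.17 and 2.60 CPM with miR-375. These overlap and did not pass (adjusted p = 0.21, edgeR), except in a fit of the LNCaP libraries alone (0.033). In PC3 TIMP3 was at 0.363 CPM or less in every library and passed only without PC3 control replicate 1 (adjusted p = 0.025). TIMP4 measured 3.00 and 3.50 CPM in PC3 controls and 2.76 and 3.63 CPM with miR-375, overlapping groups with a change of -0.02 (95% interval -0.62 to 0.58), and no more than 2 counts in any LNCaP library.

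The collagenase MMP13, which cleaves fibrillar collagen and is known from cartilage and bone, had the largest called rise among the MMPs. It measured 4.29 and 4.05 CPM in PC3 controls and 38.0 and 31.7 CPM with miR-375. Both treated libraries stood far above the controls, with a rise of 3.06 ± 0.14 (8.34-fold, adjusted p = 5.9e-20, edgeR). Per kilobase MMP13 ranked 10 among the members in PC3 with miR-375, at 12.3 CPM. In LNCaP it measured 0.484 and 0.344 CPM in the controls and 0.813 and 1.05 CPM with miR-375, from 16 and 12 counts to 30 and 38. The LNCaP groups did not overlap, and the rise of 1.17 ± 0.35 (adjusted p = 0.0079, edgeR) was smaller than that in PC3 by 1.89 ± 0.42 (adjusted p = 0.00063, edgeR). The LNCaP call was lost without LNCaP control replicate 2 (adjusted p = 0.085), without LNCaP miR-375 replicate 2 (0.073) and with limma-voom (0.15).

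MMP1, the interstitial collagenase, went the other way in PC3. It measured 5.92 and 5.48 CPM in the controls and 3.43 and 2.52 CPM with miR-375, groups that do not overlap, and fell by 0.94 ± 0.26 (1.92-fold, adjusted p = 0.0027, edgeR). Without PC3 miR-375 replicate 2 the call was lost (adjusted p = 0.059). In LNCaP it stayed between 0.172 and 0.325 CPM in all libraries, without a call (adjusted p = 0.75, edgeR). The pseudogene WTAPP1 shares 7.61% of its exon bases on the opposite strand, and the sources used here do not say if reads were counted by strand.

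The gelatinases, which degrade denatured collagen and basement membrane, were scarce in both lines. MMP2 measured 1.15 and 0.544 CPM in LNCaP controls and 0.108 and 0.166 CPM with miR-375, from 38 and 19 counts to 4 and 6. It fell by 2.59 ± 0.88 (adjusted p = 0.021, edgeR), and both treated libraries lay below both controls. That call was lost without LNCaP control replicate 1 (log2 change -1.92), without LNCaP miR-375 replicate 1 (-2.29) and without LNCaP miR-375 replicate 2 (-2.87). DESeq2 gave a log2 change of -2.59 but no adjusted p, so it made no call. MMP2 had 3 counts in 1 PC3 library and 0 in the other 3. MMP9 measured 1.67 and 1.32 CPM in PC3 controls and 1.00 and 0.664 CPM with miR-375, which did not pass (-0.85 ± 0.50, adjusted p = 0.18, edgeR), although the libraries did not overlap. In LNCaP it had 4 and 1 counts in the controls and 0 with miR-375. SLC12A5-AS1, on the opposite strand, shares 18.4% of the exon bases of MMP9 and had 168 counts over the 8 libraries, beside 193 for MMP9.

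MMP11, or stromelysin-3, is unusual among secreted MMPs in being activated inside the cell by furin. It measured 2.696 and 1.40 CPM in PC3 controls and 9.19 and 8.78 CPM with miR-375. The groups were well apart, with a rise of 2.13 ± 0.21 (4.36-fold, adjusted p = 2.2e-10, edgeR). In LNCaP the libraries overlapped at 6.80 and 7.05 CPM and then 6.70 and 9.72 CPM (0.24, 95% interval -0.13 to 0.62), and the lines differed by -1.88 ± 0.29 (adjusted p = 3.4e-06, edgeR). CHCHD10, on the opposite strand, shares 4.21% of the exon bases of MMP11 and had 16908 counts over the 8 libraries, beside 1987 for MMP11.

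MMP7, or matrilysin, a short MMP made by epithelial cells, was higher in LNCaP than in PC3, fell in LNCaP and rose in PC3. It measured 18.8 and 18.9 CPM in LNCaP controls and 13.7 and 14.0 CPM with miR-375. These groups did not overlap, and MMP7 fell by 0.45 ± 0.13 (adjusted p = 0.0076, edgeR). In PC3 it measured 0.449 and 0.467 CPM and then 1.14 and 0.997 CPM, a rise of 1.22 ± 0.30 (2.33-fold, adjusted p = 0.001, edgeR) on 18 counts in each control. The treated PC3 libraries lay above both controls, and the effects differed by -1.66 ± 0.33 (adjusted p = 0.00013, edgeR). The LNCaP call was lost on leaving out any 1 of the LNCaP libraries (adjusted p 0.086 to 0.10) and with total-count library sizes (0.054).

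MMP7, MMP13, MMP1, MMP10, MMP3 and MMP12 lie in a row of 9 MMP genes, all on the minus strand, at chr11:102520508-102955734 (GRCh38), together with MMP20, MMP27 and MMP8, which were under the count threshold. The members of this row did not move as a unit in PC3: MMP7 at one end and MMP13 at the other rose, MMP1 between them fell, and MMP10 (log2 change -0.70, adjusted p = 0.12) and MMP3 (2.44, adjusted p = 0.053, edgeR, on 24 or fewer counts a library) did not pass. In LNCaP MMP13 rose and MMP7 fell, while MMP10, the most abundant of the row after MMP7 there, had 3.76 CPM in the controls and 2.46 CPM with miR-375 on average (adjusted p = 0.13, edgeR).

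**Figure D3:**
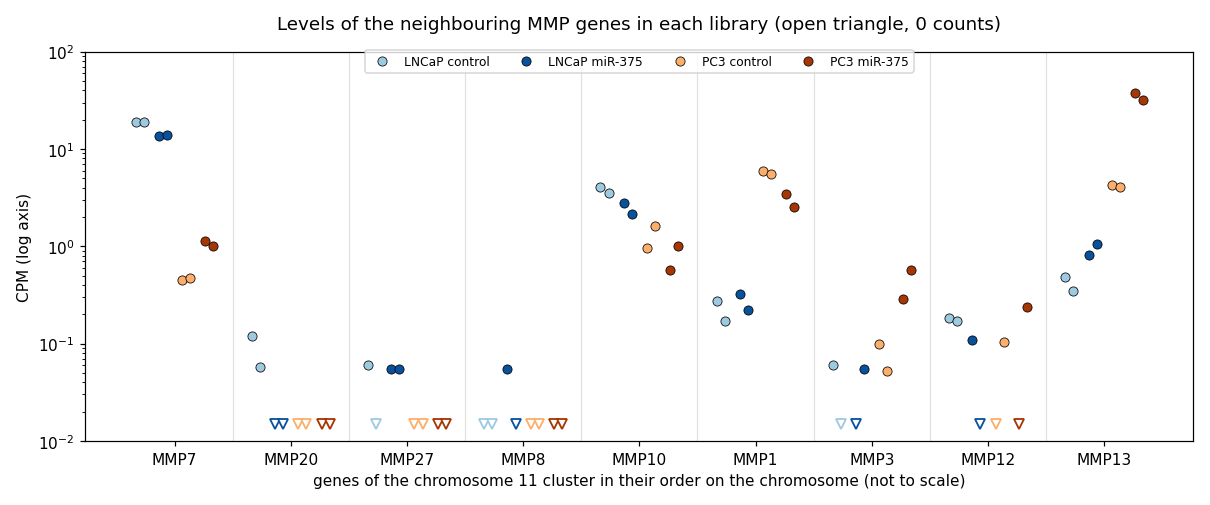
Level of the 9 MMP genes of the chromosome 11 row (CPM, log axis) in genome order, not to scale; each point is 1 library, coloured by group, and open triangles mark 0 counts. MMP13 rises from 4.29 and 4.05 CPM to 38.0 and 31.7 CPM in PC3, while MMP1 falls there from 5.92 and 5.48 CPM to 3.43 and 2.52 CPM.

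The stretches just upstream of the RefSeq start are printed for MMP7 and MMP10, the members of the row with a promoter in the RefSeq table used here (GRCh38.p14, minus strand, chr11:102530748-102530897 and chr11:102780629-102780778). Capitals mark TGAGTCA, a form of the AP-1 motif, and TATAAA, the TATA box. In the 250 bases before each start, the AP-1 motif was searched on both strands. TATAAA was searched only on the strand of the gene. MMP7 holds the AP-1 motif (TGAGTCA or TGACTCA) at -67 and TATAAA at -30, and MMP10 holds TATAAA at -31.
MMP7: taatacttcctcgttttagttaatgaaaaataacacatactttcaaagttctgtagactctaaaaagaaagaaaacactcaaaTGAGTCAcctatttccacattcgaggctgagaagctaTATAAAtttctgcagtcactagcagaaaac
MMP10: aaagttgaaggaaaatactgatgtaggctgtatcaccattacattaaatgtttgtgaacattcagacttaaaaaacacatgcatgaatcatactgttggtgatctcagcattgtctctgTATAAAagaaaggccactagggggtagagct
Of 35116 promoters in the table, 4.2% held the AP-1 motif and 6.8% held TATAAA. Of the 37 members with a promoter there, 1 held the first (MMP7) and 4 the second (MMP7, MMP10, MMP21 and ADAMTSL2).

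Membrane-type MMPs work at the cell surface. Of 6 tested, 4 rose and 1 fell in PC3 (beside 22.2% and 20.8% of all genes), and 1 rose and 1 fell in LNCaP (beside 13.9% and 18.7%). MMP14, which activates MMP2 and cleaves collagen around invading cells, was the one that fell: it measured 760 and 762 CPM in PC3 controls and 558 and 565 CPM with miR-375. These groups were far apart relative to their spread, and MMP14 fell by 0.44 ± 0.04 (1.36-fold, adjusted p = 7.4e-13, edgeR). In LNCaP it stayed between 0.379 and 0.786 CPM without a call (adjusted p = 0.18, edgeR), except without LNCaP control replicate 2 (0.0497). In PC3 with miR-375, TIMP1 stood at 482 CPM per kilobase and MMP14 at 126, against 229 and 170.5 in the controls.

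MMP15 measured 3.74 and 2.23 CPM in PC3 controls and 12.8 and 11.1 CPM with miR-375, a rise of 1.99 ± 0.13 (3.97-fold, adjusted p = 2.8e-14, edgeR). In LNCaP, where it was abundant, it measured 78.0 and 80.7 CPM and then 86.2 and 91.6 CPM. The LNCaP libraries did not overlap but the change of 0.16 ± 0.07 did not pass (adjusted p = 0.094, edgeR), and the lines differed by -1.82 ± 0.15 (adjusted p = 3.8e-11, edgeR). The LNCaP change passed with total-count library sizes (0.29, adjusted p = 0.0029), DESeq2 size factors (0.032), limma-voom (0.034), halved counts (0.015), the LNCaP libraries alone (0.0068) and without PC3 control replicate 1 (0.036) or 2 (0.037). MMP17, which is held to the membrane by a lipid anchor, measured 45.6 and 46.6 CPM in PC3 controls and 58.2 and 59.7 CPM with miR-375 (0.36 ± 0.08, adjusted p = 0.00023, edgeR). In LNCaP it measured 2.24 and 1.83 CPM and then 1.30 and 0.969 CPM, and fell by 0.83 ± 0.21 (adjusted p = 0.0017, edgeR). No groups overlapped in either line, and the effects differed by -1.19 ± 0.22 (adjusted p = 6.8e-05, edgeR). Its LNCaP call was lost without LNCaP control replicate 1 (adjusted p = 0.061), without LNCaP miR-375 replicate 2 (0.0796) and with limma-voom (0.055). MMP16 rose in both lines, by 0.47 in LNCaP and 0.38 in PC3, and MMP24 rose by 0.94 in PC3. The MMP24 call was lost without PC3 control replicate 2 (adjusted p = 0.11) or PC3 miR-375 replicate 1 (0.14), and its exons share 18.1% of their bases with MMP24OS, on the opposite strand, which had 13902 counts beside 509 for MMP24.

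**Figure D4:**
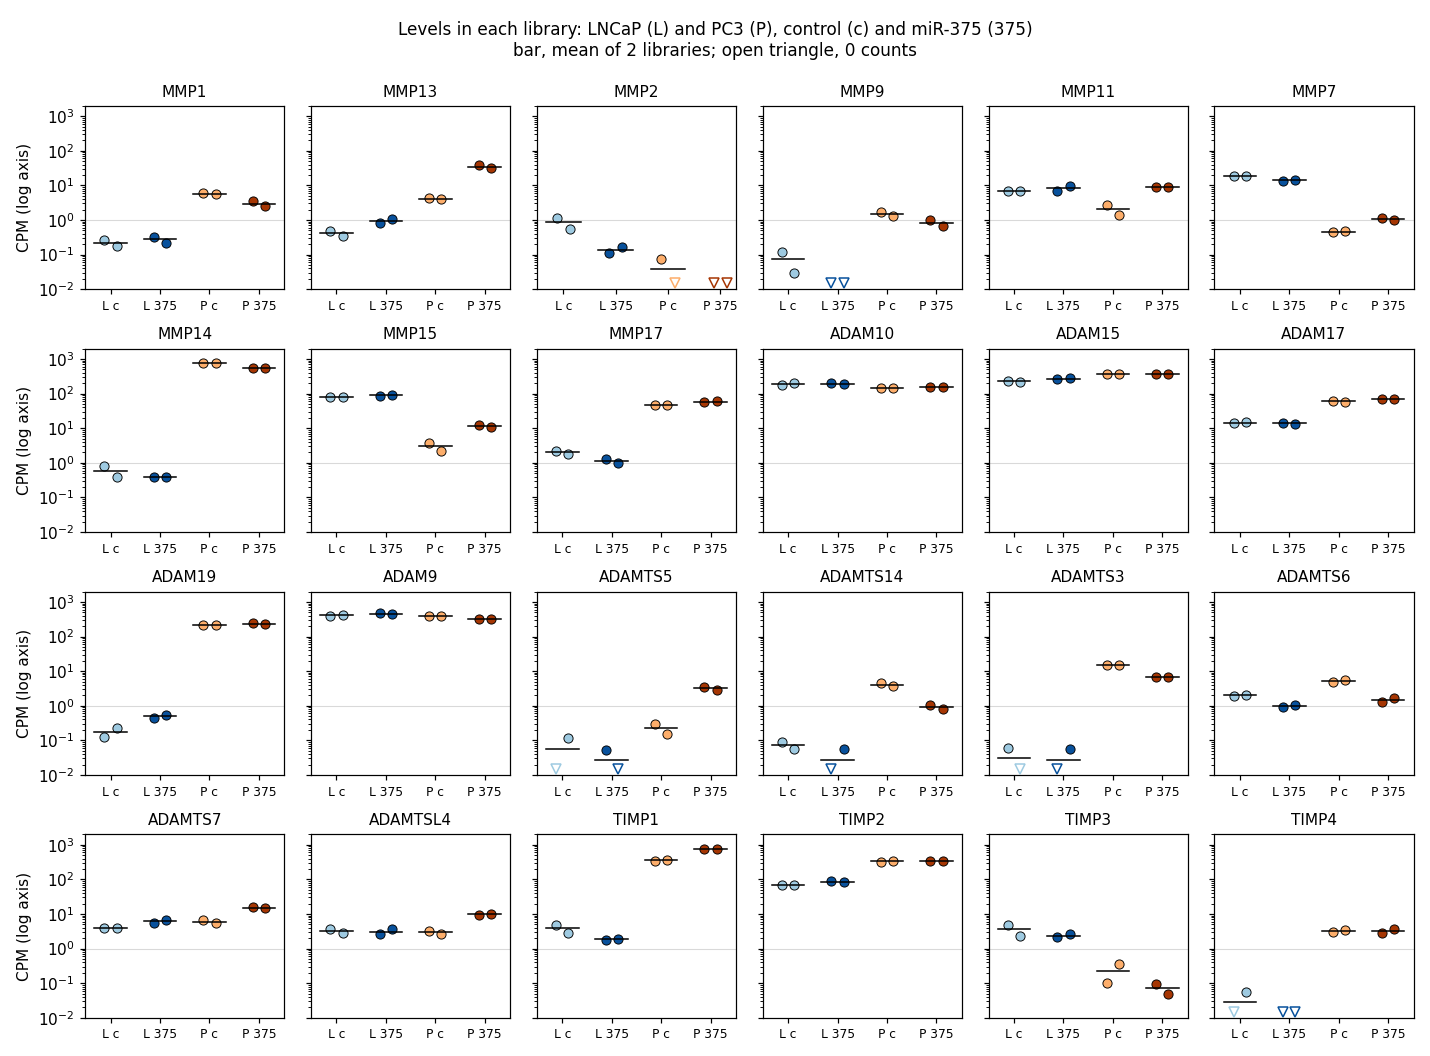
Level of the members described with values in every library (CPM, log axis), by group; each point is 1 library, the bar is the mean of the 2 libraries of a group, and open triangles mark 0 counts. TIMP1 falls from 4.96 and 2.81 CPM to 1.79 and 1.94 CPM in LNCaP and rises from 344 and 361 CPM to 744 and 742 CPM in PC3.

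Among the ADAMs, the best known sheddases had small changes. ADAM10, which cuts Notch receptors and cadherins, measured 182 and 198 CPM in LNCaP controls and 200 and 187 CPM with miR-375. Its PC3 levels were 145 and 147 CPM and then 153 and 152 CPM. It passed in neither line, with 95% intervals of the log2 change of -0.06 to 0.11 in LNCaP and -0.02 to 0.15 in PC3, and its 3′ UTR holds 1 seed match. With total-count library sizes it passed in both (0.15, adjusted p = 0.0069, and 0.14, adjusted p = 0.0095), and in LNCaP also without LNCaP control replicate 2 (0.045) or LNCaP miR-375 replicate 2 (0.0496). ADAM17, which releases TNF and ligands of the EGF receptor, measured 14.1 and 14.8 CPM in LNCaP controls and 14.4 and 13.3 CPM with miR-375, without a call (adjusted p = 0.62, edgeR). In PC3 its levels were 60.1 and 59.1 CPM and then 69.8 and 69.2 CPM, a rise of 0.22 ± 0.06 (adjusted p = 0.0043, edgeR). The difference between lines (-0.29 ± 0.11, adjusted p = 0.04, edgeR) was lost in 14 of 15 alternatives, with adjusted p from 0.052 to 0.41, every left-out library among them. IAH1, on the opposite strand, shares 12.3% of the exon bases of ADAM17.

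ADAM9, a widely expressed sheddase, measured 398 and 419 CPM in LNCaP controls and 466 and 442 CPM with miR-375, and 382 and 392 CPM in PC3 controls and 330 and 329 CPM with miR-375. It rose by 0.15 ± 0.04 in LNCaP (adjusted p = 0.00081) and fell by 0.23 ± 0.04 in PC3 (adjusted p = 1.2e-06, edgeR), with no overlap in either line. The effects differed by 0.38 ± 0.05 (adjusted p = 1.7e-07, edgeR). The LNCaP rise was 0.27 with total-count library sizes, 0.24 without LNCaP control replicate 2 and 0.25 without LNCaP miR-375 replicate 2. ADAM15, which carries an integrin-binding site in its disintegrin domain, measured 231 and 222 CPM in LNCaP controls and 262 and 277 CPM with miR-375 (0.25 ± 0.04, adjusted p = 1.2e-06, edgeR). In PC3 it measured 360 and 368 CPM and then 365 and 362 CPM, which overlap (95% interval -0.07 to 0.07), and the lines differed by 0.25 ± 0.05 (adjusted p = 0.00026, edgeR).

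ADAM19, known for its role in heart development and neuregulin processing, was rare in LNCaP and abundant in PC3. It measured 0.121 and 0.229 CPM in LNCaP controls and 0.434 and 0.554 CPM with miR-375, from 4 and 8 counts to 16 and 20. The LNCaP rise of 1.47 ± 0.41 (adjusted p = 0.0049, edgeR) was lost without LNCaP control replicate 1 (0.089), without LNCaP miR-375 replicate 2 (0.0501), with halved counts (0.056), with limma-voom (0.095) and in a fit of the LNCaP libraries alone (0.11). Its PC3 levels were 216 and 212 CPM and then 240 and 235 CPM, a rise of 0.15 ± 0.04 (adjusted p = 0.0033, edgeR). The PC3 call was lost without PC3 control replicate 2 (0.052) or PC3 miR-375 replicate 1 (0.053), and the rise was 0.23 with total-count library sizes. The lines differed by 1.31 ± 0.42 (adjusted p = 0.016, edgeR), a call lost without LNCaP control replicate 1 (0.16) or LNCaP miR-375 replicate 2 (0.09).

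The remaining calls among ADAMs were as follows. ADAM7 fell by 0.82 in LNCaP, from 34.4 and 34.7 CPM to 18.3 and 20.9 CPM (adjusted p = 2.4e-07, edgeR). ADAM21 rose by 0.58 there (adjusted p = 0.048, edgeR). Its call was lost with DESeq2 (adjusted p = 0.061) and with no filter beyond 10 counts (0.060, edgeR). It was also lost without LNCaP control replicate 2, LNCaP miR-375 replicate 1 or LNCaP miR-375 replicate 2 (log2 changes 0.46, 0.57 and 0.68). In PC3 ADAM11 rose by 0.67 and ADAM22 by 0.40; both lack a catalytic site and are best known from neurons. ADAM12 rose by 0.20 in PC3 and lost its call in 8 of 16 alternatives, among them the fits that left out any 1 LNCaP library, PC3 control replicate 2 or either PC3 miR-375 library. ADAM8, at 28.2 CPM per kilobase in PC3 controls and 27.9 with miR-375, passed in neither line.

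ADAMTS proteases gave both the largest called rise and the largest called falls in PC3. ADAMTS5, the main aggrecan-cleaving enzyme of cartilage, measured 0.300 and 0.156 CPM in PC3 controls and 3.53 and 2.82 CPM with miR-375, from 12 and 6 counts to 148 and 119. The treated libraries were well above the controls, with a rise of 3.78 ± 0.53 (13.7-fold, adjusted p = 1.8e-07, edgeR). The 3′ UTR of ADAMTS5 holds 1 seed match. In LNCaP ADAMTS5 had 0 and 4 counts in the controls and 2 and 0 with miR-375, so no fold is given there. The fitted difference between lines (-4.79 ± 1.56, adjusted p = 0.019, edgeR) rests on those counts: it was -0.50 (adjusted p = 0.91) without LNCaP control replicate 2, -3.81 (0.071) without LNCaP miR-375 replicate 2 and -7.97 without LNCaP miR-375 replicate 1.

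ADAMTS3 and ADAMTS14, which with ADAMTS2 trim the amino ends of procollagens, both fell in PC3. ADAMTS3 measured 14.9 and 15.3 CPM in PC3 controls and 6.57 and 6.86 CPM with miR-375, and fell by 1.17 ± 0.17 (2.25-fold, adjusted p = 3.5e-07, edgeR). ADAMTS14 measured 4.44 and 3.66 CPM and then 1.05 and 0.807 CPM, and fell by 2.12 ± 0.36 (4.36-fold, adjusted p = 7.3e-06, edgeR). For both, every treated library lay below every control, and neither had more than 3 counts in any LNCaP library. ADAMTS2 did not pass in PC3 (-0.86, adjusted p = 0.40, edgeR). ADAMTS3 holds 2 seed matches and ADAMTS2 holds 1, while ADAMTS14 holds 0.

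ADAMTS6, an ADAMTS of connective tissue and heart development, was the member that fell in both lines. It measured 1.93 and 2.03 CPM in LNCaP controls and 0.895 and 1.08 CPM with miR-375, and 4.84 and 5.63 CPM in PC3 controls and 1.26 and 1.66 CPM with miR-375. The falls were 1.01 ± 0.31 (adjusted p = 0.01, edgeR) and 1.84 ± 0.27 (adjusted p = 4.3e-07, edgeR), with no overlap of groups. The LNCaP call was lost without LNCaP control replicate 2 (0.069) or LNCaP miR-375 replicate 1 (0.11). The difference between lines did not pass (0.83 ± 0.41, adjusted p = 0.15, edgeR).

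ADAMTS7, which cleaves COMP and is linked to vascular disease, rose in both lines. It measured 3.93 and 3.98 CPM in LNCaP controls and 5.67 and 6.67 CPM with miR-375 (0.64 ± 0.17, adjusted p = 0.003, edgeR). In PC3 its levels were 6.66 and 5.40 CPM and then 15.8 and 14.5 CPM (1.33 ± 0.15, 2.51-fold, adjusted p = 1.6e-09, edgeR). No groups overlapped. The smaller rise in LNCaP (difference -0.69 ± 0.23, adjusted p = 0.021, edgeR) was no longer called without LNCaP control replicate 1 or 2, LNCaP miR-375 replicate 1, PC3 control replicate 2 or PC3 miR-375 replicate 1 (adjusted p from 0.0797 to 0.155), or with DESeq2 (0.065).

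ADAMTS1, a versican-cleaving protease and the most abundant ADAMTS in both lines, measured 388 and 406 CPM in LNCaP controls and 367 and 357 CPM with miR-375. In PC3 it measured 117 and 125 CPM and then 145 in each treated library, a rise of 0.26 ± 0.04 (adjusted p = 1.1e-06, edgeR). The LNCaP fall of 0.13 ± 0.04 (adjusted p = 0.0052, edgeR) was lost when any 1 LNCaP library was left out (0.054 to 0.46), with DESeq2 size factors (0.077), with DESeq2 (0.082) and with total-count library sizes (-0.0097, 0.90). The difference between lines, -0.39 ± 0.05 (adjusted p = 5.1e-07, edgeR), was called in every alternative. ADAMTS15, another proteoglycan-cleaving member, rose by 0.92 in LNCaP and 0.76 in PC3. Its LNCaP call was lost without LNCaP miR-375 replicate 2 (0.085) and with limma-voom (0.074). ADAMTS13, which cuts von Willebrand factor, rose by 0.50 in LNCaP, a call lost without LNCaP miR-375 replicate 2 (0.053).

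Of the ADAMTSL proteins, which hold no protease, ADAMTSL4, a binder of fibrillin microfibrils, measured 3.22 and 2.73 CPM in PC3 controls and 9.34 and 10.3 CPM with miR-375. It rose by 1.72 ± 0.20 (3.3-fold, adjusted p = 3.6e-09, edgeR), with the groups well apart. In LNCaP the libraries overlapped at 3.78 and 2.81 CPM and then 2.58 and 3.66 CPM (95% interval of the log2 change -0.51 to 0.36), and the lines differed by -1.80 ± 0.30 (adjusted p = 1e-05, edgeR). ADAMTSL4-AS1, on the opposite strand, had 24 counts in all. ADAMTSL5 rose by 0.77 and ADAMTSL3 fell by 0.54 in PC3.

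Other genes of the same pathways were taken from 3 lists. Of 30 regulators and partners of these proteases, 9 rose and 7 fell in LNCaP, and 15 rose and 5 fell in PC3, with median log2 changes of 0.04 and 0.20. Over all genes tested, 13.9% rose and 18.7% fell in LNCaP and 22.2% rose and 20.8% fell in PC3, with medians of 0.00 and 0.02. FURIN, the convertase that removes the prodomain of membrane-type MMPs, ADAMs and MMP11, measured 77.1 and 79.0 CPM in PC3 controls and 265 and 268 CPM with miR-375 (1.77, 3.42-fold, adjusted p = 3.9e-28, edgeR). TLL1, a procollagen C-proteinase, rose by 2.64 in PC3 and fell by 0.66 in LNCaP, and PAPLN, which encodes a matrix protein related to the ADAMTS family, rose by 2.43 in PC3. TSPAN5, a tetraspanin that helps ADAM10 leave the endoplasmic reticulum, fell by 0.68 in PC3, RHBDF1, a partner of ADAM17, fell by 0.46, and the convertase PCSK7 fell by 0.40. In LNCaP, TFPI2, a secreted inhibitor of serine proteases, went from 2.54 and 0.831 CPM to 0 counts, at least 20.5-fold lower against 3 counts a library. Its control libraries differ in the same order as those of TIMP1 and MMP2. PCSK6 fell by 0.39 in LNCaP, and CD44, TSPAN10 and PCOLCE rose by 1.63, 0.90 and 0.64. Without LNCaP miR-375 replicate 1 the rise of CD44 was 1.09; the call of PCSK6 was lost without LNCaP control replicate 2 and that of TSPAN10 without LNCaP control replicate 1.

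Of 32 membrane proteins known to be shed by ADAMs or MMPs, 10 rose and 5 fell in LNCaP and 15 rose and 9 fell in PC3 (medians 0.13 and 0.16), beside the same 13.9% and 18.7%, and 22.2% and 20.8%, of all genes. CDH1, which encodes E-cadherin, measured 4.19 and 3.50 CPM in PC3 controls and 17.7 and 15.2 CPM with miR-375 (2.09, adjusted p = 1e-20, edgeR). AXL, a receptor tyrosine kinase, fell by 1.00 in PC3 and by 1.75 in LNCaP, where the controls held 2.42 and 1.32 CPM. In PC3, SDC1 and IL6R fell by 0.81 and 0.78, ERBB4 rose by 2.62 from 0.424 and 0.260 CPM, and TNF rose by 2.96 from 0.0998 and 0.0519 CPM to 0.381 and 0.854 CPM. The 3 largest LNCaP rises named from this list were of AREG, EREG and TGFA. All encode EGF receptor ligands, but they were picked by the size of the rise and not as a family. TGFA rose by 1.57. EREG rose by 2.44, from 0.121 and 0.0573 CPM to 0.542 and 0.443 CPM. AREG went from 0 counts to 0.569 and 0.498 CPM, at least 6.05-fold. AREG and EREG met the limit of 1 CPM only through PC3 and stayed under it in LNCaP. LRP8 and NOTCH2 fell there by 0.81 and 0.43.

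Of 25 tested matrix substrates, 5 rose and 2 fell in LNCaP and 15 rose and 1 fell in PC3, with medians of 0.01 and 0.36. The shares of all genes were again 13.9% and 18.7% in LNCaP and 22.2% and 20.8% in PC3, and their medians 0.00 and 0.02. In PC3 BGN, which encodes biglycan, went from 0.0499 and 0.0519 CPM to 1.00 and 0.522 CPM, and DCN, which encodes decorin, from 0 counts to 0.333 and 0.475 CPM, at least 5.29-fold higher. COMP, a cartilage matrix protein, also passed, but on counts at the limit of 3 a library, so no fold is given. FBN2, of the fibrillin family, was the 1 that fell (0.87). In LNCaP FN1, which encodes fibronectin, fell by 0.59 and LTBP4 by 0.17, and TNC, THBS1 and COL3A1 rose by 0.77, 0.57 and 0.53. The calls of LTBP4 and TNC were each lost in alternatives, that of TNC without LNCaP control replicate 1 and that of LTBP4 without LNCaP miR-375 replicate 1 and with total-count library sizes. Beside these counts, 8 fibroblast markers summed to 142 and 148 CPM in PC3 controls and 395 and 374 CPM with miR-375. Most of it was COL1A1 (136 and 142 CPM, then 384 and 362 CPM). COL1A1, COL3A1, DCN and LUM are also on the substrate list, so the lists are not independent. In PC3, LUM (0.599 and 1.25 CPM, then 2.53 and 2.75 CPM) and PDGFRB (0.699 and 0.779 CPM, then 2.05 and 2.52 CPM) were also higher with miR-375. COL1A2 overlapped between the PC3 groups. The fibroblast sum was 47.0 to 58.6 CPM in LNCaP, and the sum of 7 endothelial markers was 376 and 378 CPM in PC3 controls and 222 CPM in each treated PC3 library, mostly KDR. The part of other cell types in the PC3 results was not tested.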

How the data were processed

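The authors deposited a single table of raw gene counts covering the 8 libraries. The submitters' processing notes name fastp, STAR 2.7.1a, featureCounts and DESeq2, and the hg38 genome. The sources used here give neither the roles of these tools nor the annotation or strand setting, so members that overlap a gene on the other strand are uncertain. Of counts from 1 to 20, 68.1% to 70.3% per library were even, and whether a count is a read or a pair is not stated. Of 60625 lines, 3 were broken (279 counts, the gene ANK2) and were left out.

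The members and gene lists were chosen with earlier results of these data known. Replicates differed by more than counting noise (chi-square per degree of freedom 3.75 to 3.86) and were kept as separate libraries. Genes passing filterByExpr by group (21066) were fitted as 4 groups in edgeR 4.0.16 (R 4.3.3, TMM, robust glmQLFit, glmQLFTest), with Benjamini-Hochberg adjustment over all of them and calls under 0.05. SE is the log2 fold change divided by the square root of F. No shared deviation of same-numbered libraries was seen (correlation 0.0241 in LNCaP and 0.00459 in PC3). With 2 libraries per group, this check cannot show that they were not prepared as pairs. A count of 0 was given a limit of 3 counts, which covers counting error only. Members were given with values in every library if called in a line or between lines with a log2 change of 1 or more and 1 CPM or more in a group, together with TIMP1 to TIMP4, MMP1, MMP2, MMP9, MMP14, ADAM9, ADAM10, ADAM15 and ADAM17. From the other lists, the called genes with the 3 largest rises and falls per line and 1 CPM or more in at least 1 of the 4 groups were named. ADAMs were called catalytic or not from textbook knowledge. Alternatives were DESeq2 1.42.0, its size factors in edgeR, total-count library sizes, limma-voom (limma 3.58.1), no filter beyond 10 counts, halved counts, a replicate block, fits of only the groups compared, and each library left out in turn. The fits were tested on simulated data. Sequences came from RefSeq (GRCh38.p14) and GENCODE v29, with promoters for 37 of 64 members. Matched stretches of some other members are not reported here.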

Additional observations from a re-analysis of the deposited data

Results flagged for a closer look

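The effect of miR-375 differed between the lines by a test of the interaction (LNCaP effect minus PC3 effect, log2, edgeR) for 9 members past 2-fold and at 1 CPM or more. TIMP1 (-2.12), MMP13 (-1.89), MMP11 (-1.88), MMP15 (-1.82), ADAMTSL4 (-1.80), MMP7 (-1.66) and MMP17 (-1.19) had the lower change in LNCaP and kept their call in all 15 alternatives. ADAM19 (1.31) had the higher change in LNCaP, from 4 to 20 counts a library there, and its call was lost in 4 of 15 alternatives. ADAMTS5 (-4.79) rests on 0 to 4 counts in the LNCaP libraries and was lost in 3 of 15.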

How the results depend on the processing

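Of the members called, 7 of 17 in LNCaP, 22 of 26 in PC3 and 11 of 17 in the difference between lines kept their call in every alternative run. Leaving out 1 library at a time gave 10 to 18 called members in LNCaP, the lowest without LNCaP miR-375 replicate 2, 23 to 28 in PC3, 12 to 16 for the difference and 41 to 43 between the controls. With the replicate block the counts were 17, 26, 16 and 42; the block moved no count by more than 1.5 times, and of the calls described it ended that of ADAM17 between lines (adjusted p = 0.052). Changes that had not passed in the line concerned changed sign in some settings. With total-count library sizes the log2 change was 0.073 for ADAM15 in PC3, 0.056 for ADAM17 and 0.044 for ADAMTSL4 in LNCaP, and 0.053 for TIMP4 in PC3. With no filter ADAM15 was 0.0051 in PC3. With libraries left out in turn, the range was -0.029 to 0.012 for ADAM15 in PC3, -0.084 to 0.043 for ADAM17 and -0.30 to 0.20 for ADAMTSL4 in LNCaP, -0.0043 to 0.057 for TIMP2 in PC3, -1.01 to 0.069 for TIMP3 in LNCaP and -0.23 to 0.16 for TIMP4 in PC3. The cause was not tested. Depth limits LNCaP values of MMP2, MMP13, ADAM19 and ADAMTS5, which rest on 38 or fewer counts a library.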
